A study of Canis lupus familiaris with 8 samples.

Results

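Transcripts of the aryl hydrocarbon receptor gene, AHR, and of its target gene CYP1B1 were examined in canine skin. Both were taken by probe name, and they are 2 of the 160 genes on a custom NanoString panel and 2 of the 156 that are not housekeeping genes. RNA came from fixed archival skin biopsies of dogs with VKH (Vogt-Koyanagi-Harada disease, or uveodermatologic syndrome, which depigments skin and inflames the eye), a dog with vitiligo (depigmentation of skin and hair), and healthy dogs. The VKH group was 2 males aged 2.5 and 2 years, the vitiligo group was 1 male aged 1 year, and the healthy group was 5 dogs, 3 females and 2 males, aged 6 to 12 years. These are the ages in the labels, and the published case descriptions give other ages for VKH dog 2 and the vitiligo dog. Case skin was taken by shave or punch biopsy. The healthy skin came from the leg, at the margin of amputations. Disease thus cannot be told apart from age, from body site or from how the skin was sampled, and each biopsy is a mixture of cell types in which fewer cells of a type and less RNA per cell cannot be told apart.

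The receptor is a transcription factor that waits in the cytosol with chaperones until it binds a ligand, such as a dioxin, a product of tryptophan breakdown or a compound made by skin microbes. It then enters the nucleus, pairs with its partner ARNT and switches on genes that include CYP1A1 and CYP1B1, a pair of cytochrome P450 enzymes that oxidize polycyclic hydrocarbons and, for CYP1B1, estrogens. In skin, keratinocytes, fibroblasts, melanocytes, endothelial cells and immune cells can express the receptor, and in human keratinocytes its activation promotes barrier genes such as filaggrin.

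NanoString counts barcoded probes bound to RNA, without amplification, and 1 count is 1 barcode read. Summed over the panel, counts were 742667 and 616576 in VKH dogs, 421915 in the dog with vitiligo and 209889 to 675018 in healthy dogs. Counts were divided by each dog's geometric mean of the 4 housekeeping genes B2M, RPL13A, CCZ1 and HPRT1, and are called scaled counts below. One of these genes, B2M, the light chain of MHC class I, was itself higher in the cases, with 113352 and 130591 scaled counts in VKH dogs and 106779 in the dog with vitiligo, against 25517 to 46475 in the healthy dogs. Once scaled, the others were lower in every case than in every healthy dog. RPL13A had 14279 to 15909 scaled counts in the cases and 20105 to 37005 in the healthy dogs. CCZ1 had 434 to 478 against 648 to 773, and HPRT1 had 523 to 536 against 628 to 743. Background, the mean plus 2 SD of the 8 negative control probes, lay between 16.6 and 27.8 counts. Both members stood far above it in every dog, at least 26.9 times for CYP1B1 and at least 28.3 times for AHR, so that counting error was small (standard error 1.58% to 4.09% and 2.60% to 3.57% of the count).

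CYP1B1 was lower in the diseased skin, and no difference in AHR was detected. CYP1B1 had 842 and 1267 scaled counts in VKH dogs, 687 in the dog with vitiligo, and 1478, 2611, 1864, 1767 and 3897 in healthy dogs 1 to 5. The vitiligo dog was the lowest of the 8, every case lay below every healthy dog, and healthy dog 5 was the highest. The means were 1055 ± 299.9 (SD, n = 2) in VKH, 932 ± 299.8 (SD, n = 3) in the 3 cases together and 2324 ± 974 (SD, n = 5) in the healthy group. Of the 156 genes, 17 (10.9%) were below all healthy dogs in all 3 cases, and CYP1B1 was 1 of them. The housekeeping genes RPL13A, CCZ1 and HPRT1, which entered the scaling, were so as well. Within the healthy group CYP1B1 varied 2.64-fold from the lowest dog to the highest, so the healthy dogs themselves spanned a range as wide as the difference between the groups.

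In the edgeR quasi-likelihood fit across all 156 genes, CYP1B1 in the 3 cases was 2.49-fold lower than in the healthy dogs (log2 fold change -1.32, standard error 0.39, 95% interval -2.18 to -0.45, adjusted p = 0.0178). This was 1 of 22 genes called lower (14.1%), in a comparison in which 79 of 156 genes (50.6%) were called in either direction. The call was lost without VKH dog 1 (adjusted p = 0.0601) or without the vitiligo dog (adjusted p = 0.0676). It was also lost with B2M left out of the scaling (log2 fold change -0.73, adjusted p = 0.162), with no scaling (adjusted p = 0.0696), with positive-control scaling (adjusted p = 0.461) and with the dog number as a block (adjusted p = 0.0861). Taken by disease, neither difference passed the adjusted threshold of 0.05. In VKH the log2 fold change was -1.14 (standard error 0.46, 95% interval -2.17 to -0.11, adjusted p = 0.0675), where 43.6% of the genes were called. In vitiligo, with 1 dog, the value was -1.76 (standard error 0.65, 95% interval -3.21 to -0.30, adjusted p = 0.0829), where 24.4% were called. VKH and vitiligo did not separate for CYP1B1 (log2 fold change 0.62, 95% interval -0.84 to 2.08, adjusted p = 0.949), and 1 of the 156 genes (0.641%) was called between them. The exact permutation test over dogs, two-sided, gave p = 0.0357 for the 3 cases and p = 0.0952 for VKH, each the smallest that the numbers of dogs allow. After adjustment over the 6 such tests that were run, these were 0.107 and 0.143.

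AHR, the receptor, had 998 and 1121 scaled counts in VKH dogs, 1062 in the dog with vitiligo, and 1113, 1361, 648, 1069 and 808 in healthy dogs 1 to 5. In these scaled counts all 3 cases lay inside the healthy range, and they were closer to each other than the healthy dogs were. Neither held in raw counts. There VKH dog 1, at 1478, was above all healthy dogs (786 to 1204), and the range was 1.66-fold in the cases and 1.53-fold in the healthy dogs. With B2M left out of the scaling, the cases had 1271 to 1497 against 578 to 1288 in the healthy dogs. The means were 1060.3 ± 61.6 (SD, n = 3) in the cases and 999.5 ± 278 (SD, n = 5) in the healthy dogs. The edgeR log2 fold change was 0.085 in the 3 cases (standard error 0.29, adjusted p = 0.831). By disease it was 0.084 for VKH (adjusted p = 0.847, standard error 0.36) and 0.088 for vitiligo (adjusted p = 0.900, standard error 0.47). The 95% interval in the 3 cases reached from 1.48-fold lower to 1.67-fold higher, so changes within these limits were not excluded. Between VKH and vitiligo the log2 fold change was -0.0040 (95% interval -1.19 to 1.18, adjusted p = 0.994), and the exact permutation test gave p = 0.679 for the 3 cases against the healthy dogs. The sign of the AHR difference in the cases turned with the scaling, as described below.

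**Figure D1:**
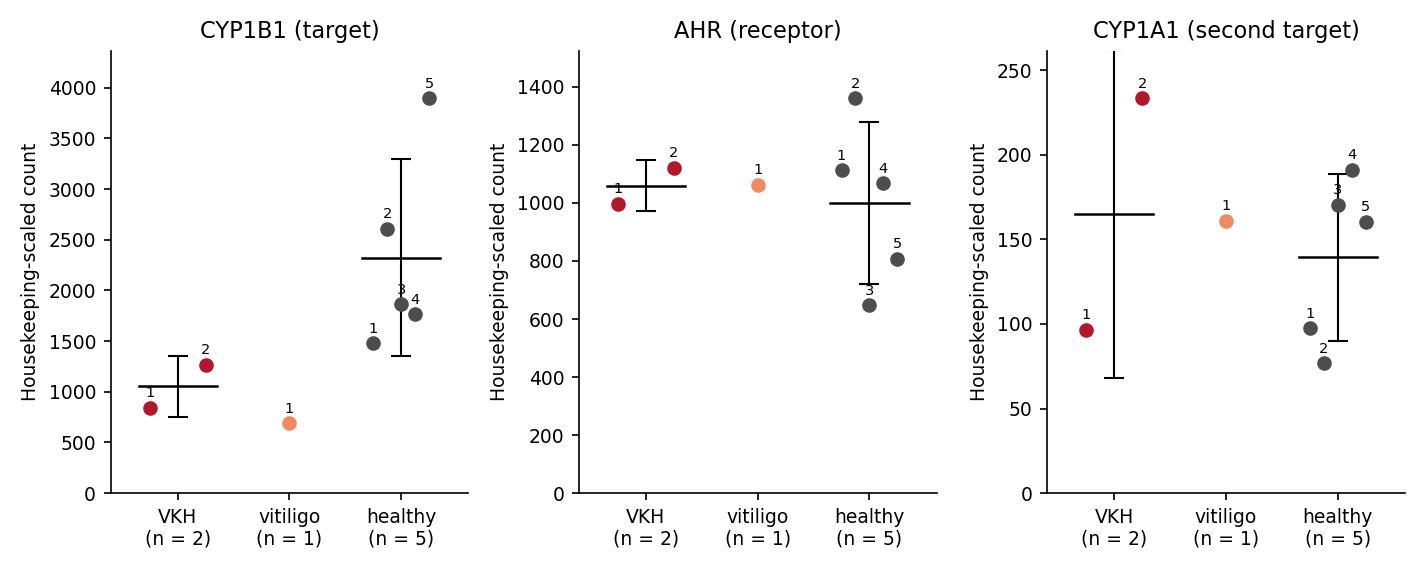
Housekeeping-scaled counts (vertical axes, linear, from 0) of CYP1B1, AHR and CYP1A1 in each of 8 dogs, with each point numbered by dog within its group and with lines and bars for the mean and SD of groups of more than 1 dog. For CYP1B1 the 3 cases (687 to 1267) sit below all 5 healthy dogs (1478 to 3897), whereas for AHR and CYP1A1 the cases overlap the healthy dogs.

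CYP1A1, the other classical target and the only one of 16 listed partners and canonical targets of AHR that was measured, did not follow CYP1B1. It had 96.5 and 233 scaled counts in VKH dogs, 161 in the dog with vitiligo, and 97.7, 76.8, 171, 191 and 160 in healthy dogs 1 to 5. The groups overlapped in part, with the lowest VKH dog beside the lower healthy dogs and the other VKH dog above them all. Its log2 fold change was 0.23 in the 3 cases (standard error 0.39, 95% interval -0.64 to 1.09, adjusted p = 0.686) and 0.24 for VKH (adjusted p = 0.682, standard error 0.46), with a sign that turned with the scaling. CYP1A1 counts were 63 to 317 per dog, above background in all 8 dogs but only 2.35 times above it in healthy dog 2.

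The level of target and receptor was then compared within each dog, where the scaling cancels. Such a ratio shows how the CYP1B1 probe changed relative to the AHR probe and not which transcript was more abundant, since probes differ in efficiency. The CYP1B1 to AHR ratio was 0.844 and 1.13 in VKH dogs, 0.647 in the dog with vitiligo, and 1.33, 1.92, 2.88, 1.65 and 4.82 in healthy dogs 1 to 5. Every case lay below every healthy dog, the nearest pair being VKH dog 2 and healthy dog 1. The ratio was 2.65-fold lower in the 3 cases (log2 difference -1.41, exact permutation test, two-sided, p = 0.0357) and 2.31-fold lower in VKH (log2 difference -1.21, exact permutation test, p = 0.0952), again the smallest values possible, and 0.107 and 0.143 after adjustment over the 6 tests. Of the other 155 genes, 19 (12.3%) had a ratio to AHR that was below all healthy dogs in all 3 cases, CYP1B1 among them, and 45 had one that was above. Among the healthy dogs, scaled CYP1B1 counts covered 2.64-fold and scaled AHR counts 2.10-fold, and raw counts, which also carry depth, 3.84-fold and 1.53-fold.

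The CYP1A1 to AHR ratio was 0.0968 and 0.208 in VKH dogs, 0.152 in the dog with vitiligo, and between 0.0564 and 0.263 in the healthy dogs, so that the groups overlapped. The ratio of the targets to each other, CYP1B1 to CYP1A1, was looked at after these values were seen and was not tested. It was 8.73 and 5.42 in VKH dogs, 4.27 in the dog with vitiligo, and 15.1, 34.0, 10.9, 9.24 and 24.3 in the healthy dogs. The cases and the healthy dogs did not overlap, although VKH dog 1 and healthy dog 4 were close. How many other genes have a ratio to CYP1A1 that separates them was not counted. Separation was common for ratios to AHR, with 19 of 155 genes below and 45 above.

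**Figure D2:**
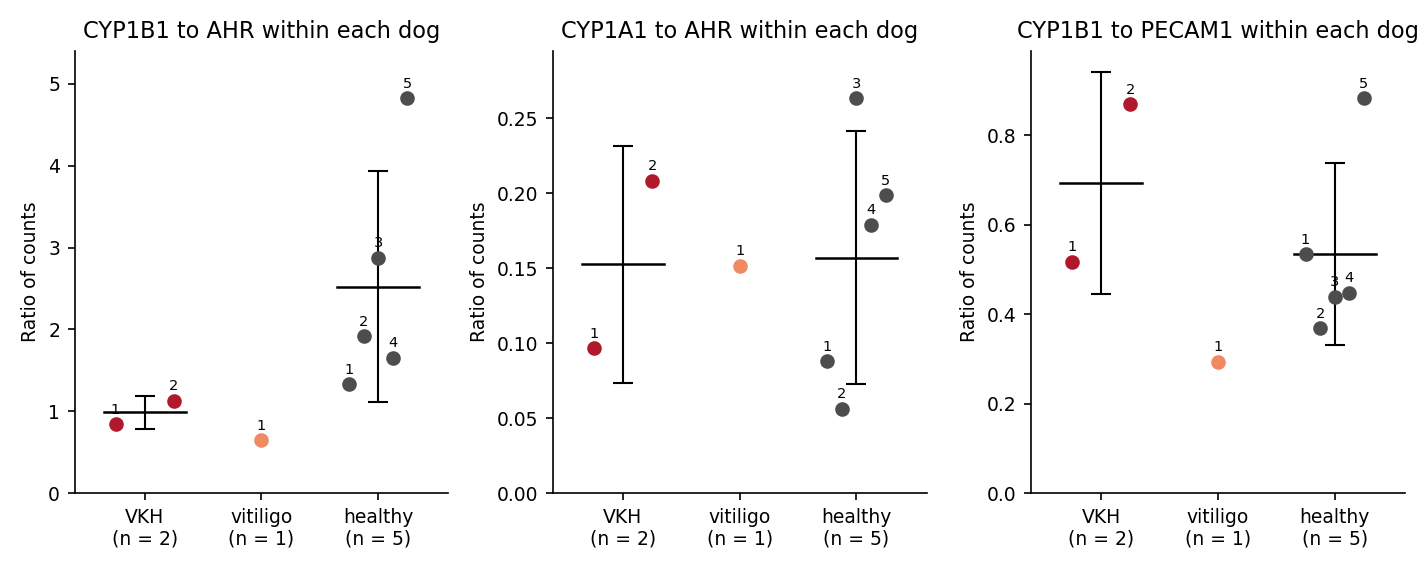
Ratios of raw counts within each dog (vertical axes, linear, from 0) for CYP1B1 to AHR, CYP1A1 to AHR and CYP1B1 to PECAM1, with points numbered by dog and with the mean and SD of groups of more than 1 dog. The CYP1B1 to AHR ratio of the cases (0.647 to 1.13) is below that of all healthy dogs (1.33 to 4.82). The other ratios overlap between the cases and the healthy dogs, with the vitiligo dog the lowest for CYP1B1 to PECAM1.

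How far CYP1B1 fell depended on the scaling, because the scalings shift all genes together. Without any scaling, CYP1B1 had 1248 and 1009 counts in VKH dogs, 598 in the dog with vitiligo, and 1044, 2143, 3465, 1553 and 4009 in the healthy dogs, so that healthy dog 1 lay among the cases. Cases and healthy dogs were apart for CYP1B1 under 4 of 7 scalings and for AHR under none. Over the 7 scalings the CYP1B1 log2 fold change in the 3 cases ran from -2.09 to -0.73, negative in all 7, and it was called in 4. The AHR log2 fold change ran from -0.58 to 0.66, negative in 3 of the 7, and it was called in none. The median over all 156 genes moved in the same way, and differences taken relative to that median were steadier. Relative to the median, CYP1B1 was between -1.48 and -1.29 in the 3 cases, -1.16 and -1.11 in VKH, and -2.11 and -2.03 in vitiligo, and AHR was between 0.0064 and 0.21 in the 3 cases.

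**Figure D3:**
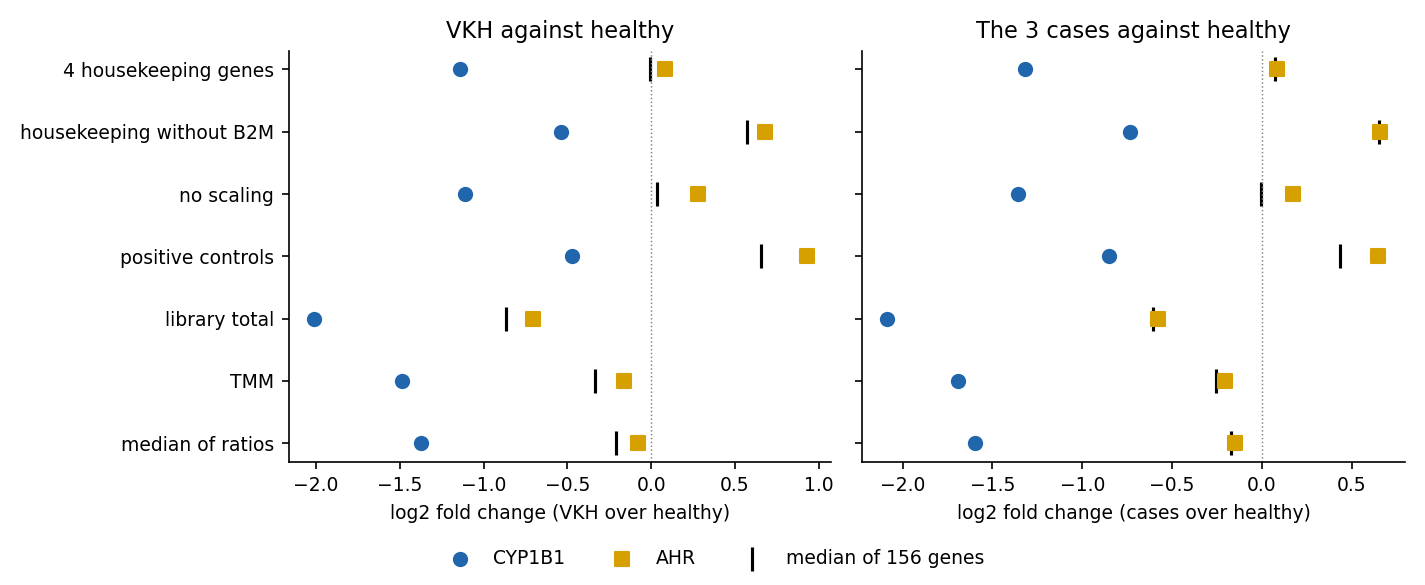
The log2 fold change (horizontal axis) of CYP1B1 and AHR, with the median of 156 genes as a black tick, under 7 ways of scaling the counts (rows), for VKH over healthy dogs on the left and for the 3 cases over healthy dogs on the right. CYP1B1 is left of 0 and of the median in every row, while AHR stays near the median and crosses 0.

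Markers of cell types of the dermis differed between the groups as well, and some of them moved with CYP1B1. PECAM1, an endothelial adhesion molecule and the only 1 of 3 listed endothelial markers measured, had 1628 and 1457 scaled counts in VKH dogs, 2339 in the dog with vitiligo, and 2770 to 7084 in the healthy dogs. IGFBP5, a binding protein of insulin-like growth factors made by fibroblasts, had 3209 and 3411 in VKH dogs, 4356 in the dog with vitiligo, and 6458 to 13595 in the healthy dogs. COL1A1, the collagen of dermal fibroblasts, had 19404 and 33319 in VKH dogs, 43479 in the dog with vitiligo, and 30239 to 124553 in the healthy dogs. PECAM1 and IGFBP5 were thus lower in every case than in every healthy dog, as CYP1B1 was, and COL1A1 overlapped. Set against these 3 genes within a dog, CYP1B1 did not separate the 3 cases from the healthy dogs, but the vitiligo dog differed from the VKH dogs. SFRP2, the other fibroblast and matrix gene measured, went the other way (log2 fold change 4.33 in the 3 cases), and no ratio to it was taken. The CYP1B1 to PECAM1 ratio was 0.518 and 0.869 in VKH dogs, 0.294 in the dog with vitiligo, and 0.369 to 0.883 in the healthy dogs. The vitiligo dog thus lay below every healthy dog. The log2 difference was 0.0015 in the 3 cases and 0.40 in VKH, so the pooled value joins diseases that differed in direction. On the log2 scale the CYP1B1 to IGFBP5 ratio differed by 0.068 in the 3 cases and by 0.40 in VKH. The CYP1B1 to COL1A1 ratio differed by -0.44 and 0.015. Both overlapped between the 3 cases and the healthy dogs. For COL1A1 the vitiligo dog, at 0.0158, was again below all healthy dogs (0.0210 to 0.0688). These 3 ratios were chosen after the values were seen and carry no test, and the part of tissue makeup in the CYP1B1 difference was not tested.

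The other marker lists differed in direction. The 4 keratinocyte keratins summed to 242365 and 456473 scaled counts in VKH dogs, 213396 in the dog with vitiligo, and 69906 to 170792 in the healthy dogs. KRT1 and KRT10 carried this sum, with log2 fold changes of 1.76 and 1.74 in the 3 cases, beside 0.65 for KRT14 and 0.029 for KRT5. Of the 4 keratins, 2 were called higher in VKH, where 31.4% of all genes were. In vitiligo, with 1 dog, the log2 fold changes were 1.43 for KRT1, 0.97 for KRT10, 0.81 for KRT14 and -0.16 for KRT5. The 4 measured T cell markers, of 8 listed, summed to 1516 and 1938 in VKH dogs, 1434 in the dog with vitiligo, and 155 to 251 in the healthy dogs. All 3 fibroblast and matrix genes measured, of 10 listed, summed to 23732 and 41327 in VKH dogs, 48457 in the dog with vitiligo and 41694 to 138360 in the healthy dogs, although SFRP2 among them had a log2 fold change of 4.33 in the 3 cases. The 4 measured melanocyte markers, of 8 listed, summed to 447 and 605 in VKH dogs, 783 in the dog with vitiligo and 426 to 1058 in healthy dogs, and overlapped between the groups. The 3 measured mast cell markers, of 4 listed, summed to 340 and 367 in VKH dogs, 656 in the dog with vitiligo and 543 to 778 in healthy dogs, and PPARG, the only 1 of 3 adipocyte markers measured, had 312 and 364 in VKH dogs, 769 in the dog with vitiligo and 330 to 2411 in healthy dogs. The mast cell sum was thus lower in both VKH dogs than in any healthy dog, and PPARG overlapped. Among the mast cell markers, HDC overlapped, with 28.4 and 30.1 in VKH dogs and 25.3 to 48.7 in healthy dogs. Only CPA3 of the 3 was called lower in VKH, where 12.2% of all genes were. CD207, which marks Langerhans cells, was at or below background in all dogs.

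The genes whose levels ran most like those of CYP1B1 over the 8 dogs were IL6, CCL25 and CSF3R, with Pearson correlations of log2(scaled count + 1) of 0.93, 0.91 and 0.89. These correlations describe 8 dogs of groups that differ, share the scaling, and were not tested. IL6, a proinflammatory cytokine, had 27.7 and 22.6 scaled counts in VKH dogs, 17.2 in the dog with vitiligo, and 190, 530, 527, 228 and 1456 in healthy dogs 1 to 5. It ranked healthy dog 5 highest and the vitiligo dog lowest, as CYP1B1 did. IL6 was below background in the vitiligo dog (15 counts against 22.2) and close to it in VKH dog 2 (18 against 16.6). The order of IL6 among the cases is thus not reliable. CSF3R, the receptor of granulocyte colony-stimulating factor, had 46.6 and 45.2 scaled counts in VKH dogs, 52.9 in the dog with vitiligo and 78.5 to 175 in the healthy dogs. CCL25, a chemokine, was above background in healthy dogs 3 and 5 alone, at 31 and 27 counts. For AHR the most alike were IL10, an anti-inflammatory cytokine (0.78), CHRNA7, a nicotinic acetylcholine receptor subunit (0.77), and HDC, the enzyme that makes histamine (0.75). CHRNA7 and HDC were low, at 27 to 63 and 24 to 47 counts. CYP1B1 and AHR themselves correlated at -0.20 with housekeeping scaling and at 0.57 with scaling by the panel total, so that even the sign of this value was set by the scaling.

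Further genes of the pathway were few on the panel. None of 6 listed enzymes of tryptophan catabolism was measured. Of 6 listed cytokines linked to AHR, 5 were measured. In VKH 1 of these 5 fell, where 12.2% of all genes were called lower, 4 did not pass and the median log2 fold change was -0.33, beside a median over all 156 genes of -0.0078. The gene that fell was IL6 (log2 fold change -4.53, standard error 0.92, adjusted p = 0.00362 by edgeR), which was below background in the dog with vitiligo and close to it in VKH dog 2, so that the size is not exact. IL10, which is induced through AHR in some T cells, had a log2 fold change of 0.22 (adjusted p = 0.603), and IL1B, an inflammasome cytokine, one of -0.97 (adjusted p = 0.171). IL17A, whose own value is the list median above, was above background in 0 dogs, so that this median is not informative. IL21 was above background in 2.

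Both measured genes of the 4 listed T cell factors linked to AHR rose in VKH, where 31.4% of all genes were called higher. Their median log2 fold change was 2.48, but most healthy dogs were below background for both genes, so that the size is not exact. TBX21, the factor of type 1 T cells, had 108 and 205 scaled counts in VKH dogs, 93.1 in the dog with vitiligo and 12.7 to 33.4 in the healthy dogs, of which dog 3 alone was above background. FOXP3, the factor of regulatory T cells, had 29.0 and 57.7 in VKH dogs, 34.5 in the dog with vitiligo and 3.65 to 14.2 in the healthy dogs, where it was below background in every dog. T cell markers rose beside both, as given above, and their part was not tested.

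Of 6 listed barrier genes that respond to AHR in human keratinocytes, 3 were measured. In VKH 1 of the 3 rose, close to the 31.4% of all genes called higher, and 2 did not pass. The list had a median log2 fold change of 0.88, beside -0.0078 over all genes. FLG, which encodes filaggrin, a protein that packs keratin in the outer epidermis, had 20595 and 31577 scaled counts in VKH dogs, 11255 in the dog with vitiligo and 2078, 3646, 6038, 3212 and 6153 in the healthy dogs. In scaled counts all 3 cases lay above all healthy dogs, as they did for 54 of the 156 genes. In raw counts FLG overlapped, with 9791 in the dog with vitiligo and 11222 in healthy dog 3. FLG rose with a log2 fold change of 2.63 in VKH (standard error 0.45, adjusted p = 0.00139) and of 2.32 across the 3 cases (adjusted p = 0.00154). LORICRIN and IVL, which encode proteins of the cornified envelope, had log2 fold changes in VKH of 0.88 (adjusted p = 0.105) and 0.53 (adjusted p = 0.403). CYP1B1 and FLG, both genes that respond to the receptor in human cells, thus differed from healthy skin in opposite directions in the 3 cases pooled. CYP1B1 was not called in either disease alone, as given above. In vitiligo, with 1 dog, the FLG log2 fold change was 1.41. The paper reported FLG as significantly higher in VKH and not in vitiligo. The keratins of the differentiated epidermis, KRT1 and KRT10, had log2 fold changes of 1.90 and 2.01 in VKH beside that of FLG, and their part was not tested.

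Since CYP1B1 acts on steroids, steroid and neuroendocrine genes were listed as well, and 9 of 22 were measured. In VKH 1 of the 9 fell, close to the 12.2% of all genes called lower, and 8 did not pass. The median log2 fold change was -0.96, beside -0.0078 over all genes. ADRB1, the beta-1 adrenergic receptor, had 7.43 and 7.53 scaled counts in VKH dogs, 27.6 in the dog with vitiligo and 26.9 to 166 in the healthy dogs. It fell in VKH (log2 fold change -3.48, standard error 0.77, adjusted p = 0.00531), but both VKH dogs were below background, so that the size is not exact, and the call was lost without VKH dog 1 (adjusted p = 0.0504) and with positive-control scaling (adjusted p = 0.0686). HSD11B1, which regenerates active glucocorticoid, had a log2 fold change of 0.045 (adjusted p = 0.934). RXRG, a retinoid X receptor, and POMC, the precursor of melanocortins, had log2 fold changes of -1.22 (adjusted p = 0.0661) and -1.21 (adjusted p = 0.274), and POMC was above background in 0 dogs.

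**Figure D4:**
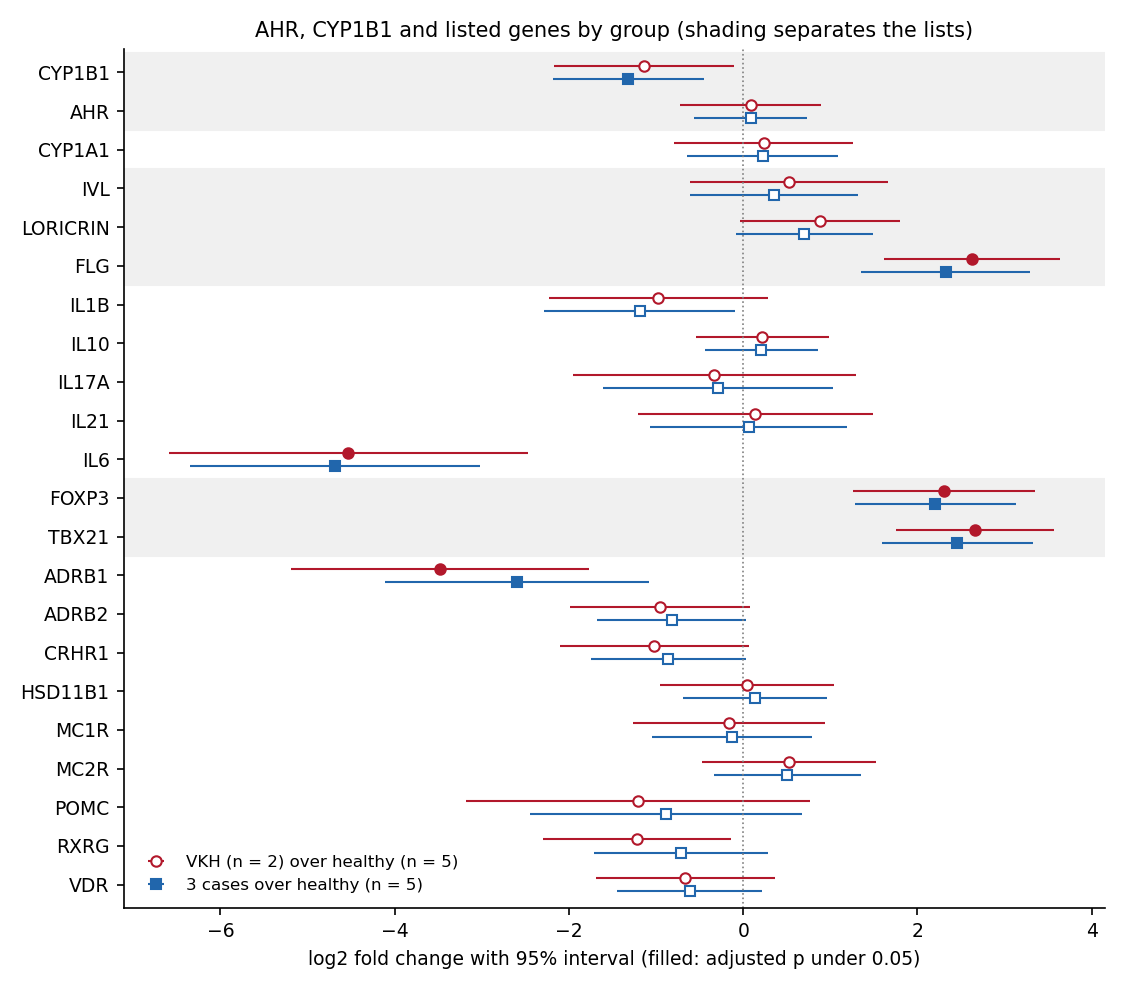
The edgeR log2 fold change with its 95% interval (horizontal axis) of CYP1B1, AHR and the measured genes of the lists (rows, shaded by list), for VKH over healthy dogs (circles) and for the 3 cases over healthy dogs (squares), filled where the adjusted p is under 0.05. CYP1B1 is filled for the 3 cases only (-1.32), AHR and CYP1A1 lie near 0, and IL6 and ADRB1 are far to the left while FOXP3, TBX21 and FLG are to the right.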

How the data were processed

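The authors hybridized RNA of 8 archival fixed skin biopsies, 1 per dog, to a custom NanoString panel and read it on a Sprint instrument. They deposited raw counts per probe for 160 genes, 6 positive and 8 negative controls. These are barcode counts with no alignment. The methods name nSolver, an analysis of variance with Bonferroni posttests on sets of genes, and two-tailed t-tests, both of VKH against healthy dogs.

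Probes were named through RefSeq accessions (72) or symbols (76), and 12 names were kept. The CCZ1 probe was taken as the housekeeping probe left once the others were named. Each dog was scaled by its geometric mean of the 4 housekeeping genes, given to edgeR as library size. Groups came from the labels. In R 4.3.3, edgeR 4.0.16 (quasi-likelihood, legacy fit) tested VKH, vitiligo and healthy dogs in 1 fit, and the 3 cases against healthy dogs in another, with Benjamini-Hochberg adjustment over 156 genes, a threshold of 0.05 and no low-count filter. The fit assumes that the single vitiligo dog varies like the others. Exact permutation tests over dogs used log2(scaled count + 1) and log2 ratios. The procedure was tested on simulated data.

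Named genes were both members, the 3 genes most correlated with each, and at most 4 genes per list with the largest change. HSD11B1, IL21 and the cell type markers were named beside this rule. The members and lists were chosen with earlier results of these data known. Alternatives were no scaling, housekeeping without B2M, panel total, TMM, median of ratios, positive controls, a filter (20 counts in 2 dogs), background subtraction, the newer edgeR default, DESeq2 1.42.0, limma 3.58.1, only the groups compared, male healthy dogs, a replicate block, each dog left out, and the methods' t-test on raw counts.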

Additional observations from a re-analysis of the deposited data

Results flagged for a closer look

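Among 25 groups of dogs examined for a single outlying value, 1 was found, a share no larger than the about 1 in 20 that chance alone gives. It was IL6, the gene whose level ran most like that of CYP1B1: healthy dog 5 had 1456 scaled counts, against 530 in the next healthy dog and 190 in the lowest, a gap of 0.731 of the range. The same dog had the highest CYP1B1, 3897 scaled counts.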

How the results depend on the processing

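CYP1B1 was lower in the cases, in VKH and in vitiligo under every alternative run. In the 3 cases its call was lost with no scaling (log2 fold change -1.36, adjusted p = 0.0696), housekeeping without B2M (-0.73) and positive controls (-0.85), and adjusted p ran from 0.00376 to 0.461 over the alternatives. It was also lost without VKH dog 1 (adjusted p = 0.0601) and without the vitiligo dog (adjusted p = 0.0676), with log2 fold changes of -1.60 to -1.05 when each dog was left out in turn. In VKH it passed with the panel total (-2.02, adjusted p = 0.0147). There 37.8% of all genes were called lower and the median over all genes was -0.87, against 12.2% and -0.0078 in the main fit. CYP1B1 in VKH also passed with DESeq2 (-1.14, adjusted p = 0.0396) and without healthy dog 1 (adjusted p = 0.0461). Its log2 fold change in VKH was -1.46 to -0.87 over dogs left out, with adjusted p of 0.0147 to 0.777 over the alternatives. In vitiligo it passed with DESeq2 (-1.76, adjusted p = 0.0247, range 0.0247 to 0.485). The methods' t-test of VKH on raw counts put 54 genes under its threshold and 24 after Benjamini-Hochberg, CYP1B1 and AHR not among them. The paper reported CYP1B1 as significantly lower by its analysis of variance with Bonferroni posttests, which was not rerun.

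AHR passed nowhere, and its sign turned. With the panel total, TMM, median of ratios and male healthy dogs it was -0.71, -0.16, -0.079 and -0.20 in VKH, -0.36, -0.30, -0.30 and -0.19 in vitiligo, and -0.58, -0.20, -0.15 and -0.20 in the 3 cases. In vitiligo it was -0.078 with no scaling and -0.16 with positive controls. Over dogs left out it ran from -0.038 to 0.22 in VKH, -0.034 to 0.22 in vitiligo and -0.036 to 0.22 in the 3 cases. In VKH against vitiligo it was 0.36 with no scaling, 0.061 without B2M, 0.14 with TMM, 0.23 with median of ratios, 1.08 with positive controls and -0.090 to 0.078 over dogs left out.

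The CYP1B1 to AHR ratio in the 3 cases had a log2 difference of -1.06 with male healthy dogs (exact permutation p = 0.2) and -1.61 to -1.13 over dogs left out (p = 0.0571 or 0.0952), where each p is the smallest possible, so that these tests could not pass.

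Dogs of different groups share only a number. Genes called in VKH were 68, and 39 with no scaling, 41 with positive controls, 42 with the replicate block, and 39 to 70 over dogs left out, 44 without VKH dog 1 and 39 without VKH dog 2. Deviations of same-numbered VKH and healthy dogs correlated at -0.076 and -0.13. With the replicate block CYP1B1 was -0.99 in the 3 cases (adjusted p = 0.0861), and AHR -0.22 in VKH, -0.10 in vitiligo and -0.18 in the 3 cases. FOXP3 in VKH also lost its call with the block (adjusted p = 0.104). The cause of these changes was not tested. With 3 cases, of which 1 has vitiligo, no alternative separates disease from age or body site.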
